A study of Homo sapiens with 4 samples.

Results

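Genes that make, break down, sense and localise cyclic AMP were followed in MDA-MB-231 cells, an established human breast carcinoma line with a mesenchymal-like phenotype, after depletion of DROSHA, the nuclear ribonuclease that starts microRNA processing. The 49 genes were chosen by family name: A-kinase anchoring proteins (AKAPs), cyclic AMP-hydrolysing phosphodiesterases, adenylyl cyclases, the subunits and inhibitors of protein kinase A (PKA), and the transcription factors CREB1 and CREM. They were put forward after AKAP12 and PDE7B had been seen among the genes with the lowest values in depleted cells, so the differences of that pair are given as a description with no test. A gene entered with its platform symbol, and where several probe sets carried it, the probe set was selected on the highest mean signal over the 4 arrays. This found 42 of the 49 genes, out of 15870 genes named on the array by 15886 of its 18603 probe sets, each probe set with 1 symbol or none and with no filter on signal. AKAP3, AKAP13, PDE1A, PDE3A, ADCY6, ADCY8 and CREM had no probe set under their symbol and were not analysed here.

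Affymetrix whole-transcript arrays held amplified cDNA from total RNA of 2 cultures labelled shDROSHA, carrying a short hairpin RNA against DROSHA, and of 2 labelled shNC. The series text calls the control mock-transfected, and which description holds was not settled here. All 4 cultures were MDA-MB-231 cells in the same serum-containing medium with no further treatment named, and their titles call them biological replicates. How many hairpins were used, and whether the cells were 1 clone, is not stated by the labels.

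Cyclic AMP is an intracellular messenger made from ATP by adenylyl cyclases, which Gs-coupled receptors switch on, and removed by phosphodiesterases. It binds the regulatory subunits of PKA and so frees the catalytic subunits, which phosphorylate many proteins, CREB among them. AKAPs hold the kinase at particular membranes and organelles, often together with a phosphodiesterase, and the small PKI proteins block free catalytic subunits.

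DROSHA itself had log2 signals of 8.71 and 8.74 in depleted cultures against 9.66 and 9.76 in controls, 1.98-fold lower. The depletion named in the labels was thus visible in its mRNA. Median signals of the arrays lay between 7.21 and 7.25 on the log2 scale. All 7 markers fixed for MDA-MB-231, among them VIM and CD44, lay above the median signal of all probe sets. Of the luminal breast markers, only KRT8 and KRT18 of 7 measured lay above it, ESR1 being below it, and of markers of blood, endothelium, fibroblasts and liver 0 of 9 did. Among the line's own markers AXL rose by 0.33, and CAV1 and MSN had log2 differences of -0.23 and -0.22 and fell. The luminal marker TFF1 rose by 0.62, close to the threshold (limma adjusted p = 0.045). It had 6.71 and 6.31 against 5.82 and 5.97, a dim signal at the 30.9 percentile of probe sets. Of the 9 markers of other cell types, 0 passed the test.

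A few members of several classes had lower signal after DROSHA depletion, with no class lower throughout except the catalytic subunits and the inhibitors of PKA and, as its only measured factor, CREB1. Of the 40 measured genes other than AKAP12 and PDE7B, 6 had lower and 0 had higher signal at an adjusted p under 0.05. These were the phosphodiesterases PDE4B and PDE4D, the catalytic subunits PRKACA and PRKACB of PKA, its regulatory subunit PRKAR2B and its inhibitor PKIA. AKAP12 and PDE7B were below the same threshold, which is no test of them because their low values were known when the genes were chosen. They bring the count to 8 of 42. The test was limma's moderated test with a prior variance that follows signal level, adjusted by Benjamini-Hochberg over all probe sets. The lower calls made up 15% of the 40 genes, or 19.0% of the 42 with AKAP12 and PDE7B. Over all probe sets 3.28% were called lower, 3.12% higher and 6.41% in either direction, and among probe sets at or above the median signal, where 7 of the 8 lay, 5.31% were called lower. Because the genes were put forward with results of this comparison known, these shares are given side by side and nothing is read from them.

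The shift was not shared by the whole group. The median log2 difference, shDROSHA minus shNC, was -0.06 over the 42 genes, with 20 higher and 22 lower, against 0.001 over all probe sets. The arrays of the groups did not overlap at 24 of the 42 genes (57.1%), 14 of them lower and 10 higher, beside 47.8% of all probe sets. With 1 constant prior variance for all probe sets, limma called 0 of the 42 genes (12 at an unadjusted p under 0.05, as were 2774 of the 18603 probe sets) and 0.00538% of all probe sets. For a single gene, permuting 2 and 2 arrays exactly allows no p under 0.333 (two-sided), so every call rests on spread pooled across probe sets. Since the labels say only that replicates are biological, p-values measure the spread between these cultures.

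**Figure D1:**
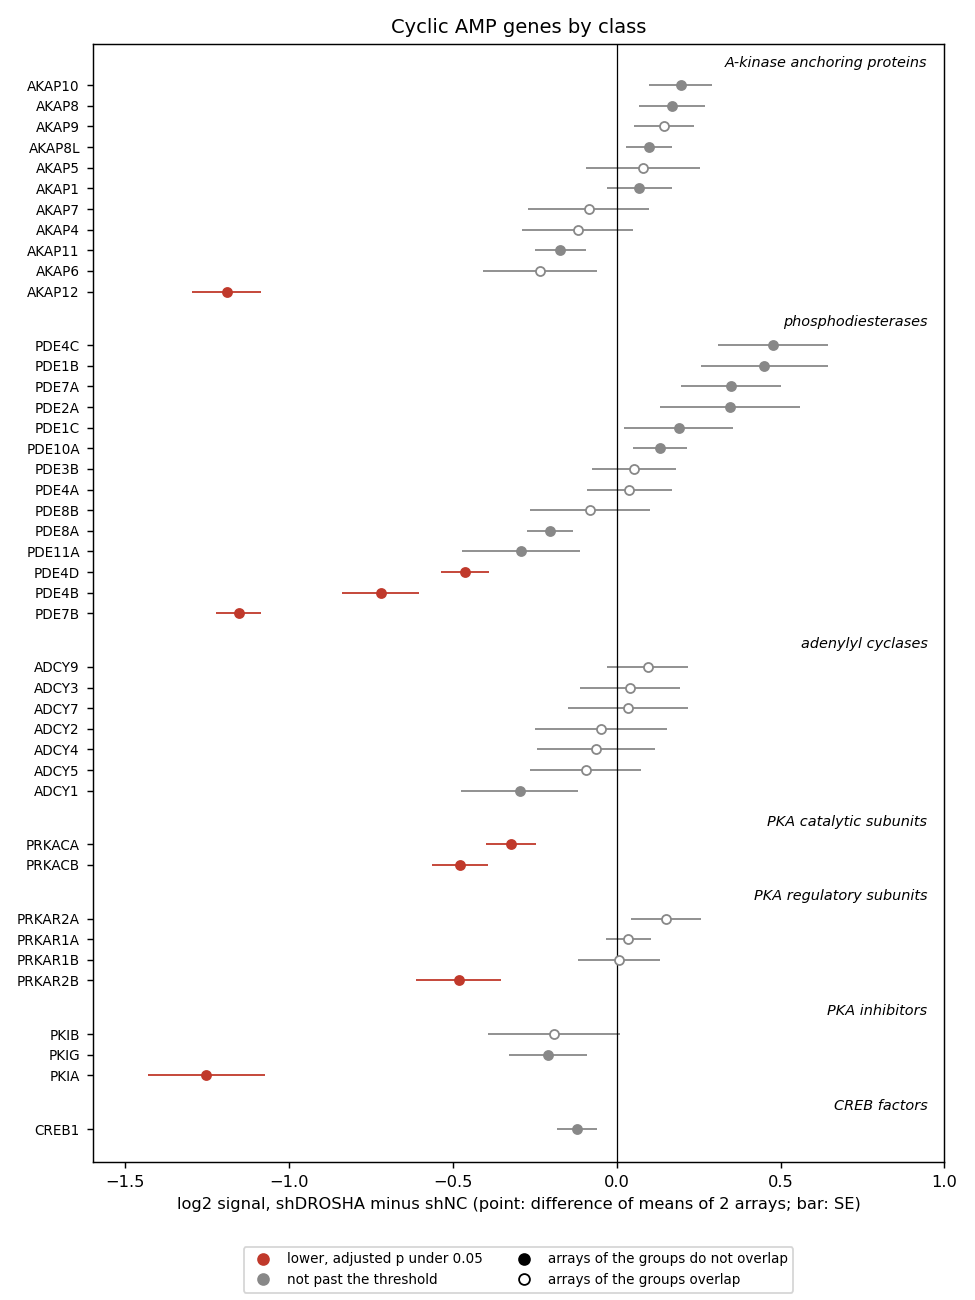
Difference in log2 signal, shDROSHA minus shNC, for the 42 measured genes by class; points are differences of the means of 2 arrays, bars are SEs, and filled points mark genes whose arrays do not overlap between groups. The 8 red points, all lower, reach from -0.32 (PRKACA) to -1.25 (PKIA), and no adenylyl cyclase is among them.

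Promoter sequences from RefSeq (GRCh38.p14) are shown for AKAP12, for members with the whole palindrome and for members past the threshold with its core, because CREB, the factor that PKA activates, binds the palindrome TGACGTCA, the cyclic AMP response element. Windows of 250 bases before to 50 after annotated starts were found for 37 of the 42 genes, 99 windows in all. Both strands were searched for the palindrome and for its core TGACG, which the palindrome holds on each strand. Positions count from the start site, -1 being the base before it. Capitals mark the match on which a stretch was chosen, and AKAP12 is shown in lower case because its stretch holds neither.
PDE7B, chr6:135851451-135851700, plus strand: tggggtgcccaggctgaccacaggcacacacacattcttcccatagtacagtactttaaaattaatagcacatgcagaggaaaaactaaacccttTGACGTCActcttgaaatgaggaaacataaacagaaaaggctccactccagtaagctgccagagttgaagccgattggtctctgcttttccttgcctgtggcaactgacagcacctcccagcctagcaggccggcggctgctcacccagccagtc
AKAP12, chr6:151239717-151239966, plus strand: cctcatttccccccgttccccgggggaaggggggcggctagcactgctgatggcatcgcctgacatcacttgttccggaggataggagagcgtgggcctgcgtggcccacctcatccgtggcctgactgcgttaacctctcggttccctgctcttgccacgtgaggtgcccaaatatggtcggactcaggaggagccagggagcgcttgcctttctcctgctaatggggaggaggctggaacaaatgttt
PDE4A, chr19:10416759-10416788, plus strand: cgtcagtccgcTGACGTCAcgccccaggag
PRKAR1A, chr17:68512370-68512399, plus strand: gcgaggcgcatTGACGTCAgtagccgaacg
PRKACA, chr19:14117796-14117822, minus strand: cggcgctgagcCGTCAgtcagggcggc
PRKACB, chr1:84077938-84077964, plus strand: ccgggcctgcgCGTCActtccggcgcg
PDE4D, chr5:59587667-59587693, minus strand: gagggccccctTGACGccagcacatcc
The palindrome lay in windows of 3 measured genes, PDE7B (-155 to -148), PDE4A and PRKAR1A. PDE7B was lower by more than 2-fold. PDE4A had a log2 difference of 0.04 and did not pass the test. The 2 probe sets of PRKAR1A had 0.03 (the brighter) and -0.27, and neither passed. The palindrome occurred in 4 of the 99 windows (4.04%) and in 1.85% of all 35116 windows, and the core in 27.3% and 24.6%. Of those 4 windows, 2 were overlapping windows of PRKAR1A that hold the same site. In the 26 windows of members past the threshold the palindrome occurred in 1 (3.85%) and the core in 4 (15.4%). Counted by gene, the core occurred in 4 of 7 of these members (57.1%). That compares with 48.6% of the measured genes with a window and 28.4% of all genes with a window. A share by gene grows with windows per gene, and these differed: 26 windows for 7 genes, 99 for 37 and 35116 for 27305. Nothing is read from the shares by gene, and the 7 include AKAP12 and PDE7B. PKIA had no window. The 3 annotated starts of AKAP12, the 6 of PDE4B and the 1 of PRKAR2B had neither motif in their windows. A match describes letters only, and the arrays do not tell which start was used.

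Among the AKAPs, AKAP12 stood apart. AKAP12, also called gravin, is a large scaffold at the cell cortex that binds PKA, protein kinase C and beta-adrenergic receptors. It read 7.19 and 7.16 on the log2 scale after depletion, against 8.44 and 8.29 in controls. Both depleted cultures lay more than a log2 unit below both controls, and the difference was -1.19, or 2.28-fold lower (SE 0.106). It lay between -1.26 and -1.12 when each array was left out in turn.

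None of the other 10 measured AKAPs passed the test, and their differences ran from -0.24 to 0.20, with 6 higher and 4 lower. AKAP11, an anchor on vesicles that also binds GSK3 beta, was lower without overlap, at 8.77 and 8.71 against 8.92 and 8.90 (difference -0.17, 95% interval -0.34 to -0.004, limma adjusted p = 0.24). AKAP10, which carries regulator-of-G-protein-signalling domains, had 8.21 and 8.33 against 8.03 and 8.12, higher without overlap (difference 0.20, limma adjusted p = 0.29). Both intervals leave room for a shift of over 0.3 on the log2 scale. AKAP8L, a nuclear AKAP whose probe set was the brightest of its class, had 9.65 and 9.72 against 9.52 and 9.65 and a difference of 0.10. AKAP8, its nuclear relative, and AKAP9, the scaffold of the Golgi and centrosome, differed by 0.17 and 0.14, and AKAP1, the mitochondrial AKAP, by 0.07. The remaining members AKAP4, AKAP5, AKAP6 and AKAP7 lay below the lower quartile of signal, where values may be background, and overlapped between groups.

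Of the 13 measured phosphodiesterases other than PDE7B, PDE4B and PDE4D fell and 0 rose. Of all 14, 8 were higher and 6 lower. The median difference was 0.05, as against -0.33 for the 6 at or above the median signal and -0.06 without shNC replicate 2. Those 6 include PDE7B, whose low value was known beforehand, so nothing is read from their median. The 13 other than PDE7B had a median of 0.05. Arrays did not overlap at 11 of the 14 (78.6%), 5 of them lower and 6 higher, beside 47.8% of all probe sets. PDE7B, a cyclic AMP-specific enzyme of low sensitivity to classical inhibitors, had 8.77 and 8.81 against 9.94 and 9.95. The replicates of each group lay within 0.05 of each other, and PDE7B was 2.22-fold lower in depleted cells (difference -1.15, SE 0.068).

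The PDE4 enzymes are the cyclic AMP-specific, rolipram-sensitive family. PDE4B had 7.09 and 7.02 in shDROSHA against 7.70 and 7.85 in shNC arrays and fell 1.65-fold (difference -0.72, SE 0.117, limma adjusted p = 0.0023). PDE4D had 9.09 and 8.996 against 9.55 and 9.46 and fell 1.38-fold (difference -0.46, SE 0.074, limma adjusted p = 0.0019). In each of these genes both depleted arrays lay below both controls. With each array left out in turn, the difference lay between -0.80 and -0.64 for PDE4B and between -0.51 and -0.41 for PDE4D. PDE4A differed by 0.04 (95% interval -0.24 to 0.31) with overlapping arrays. PDE4C had 5.77 and 5.87 against 5.32 and 5.36, higher without overlap by 0.48, but did not pass (95% interval 0.12 to 0.84, limma adjusted p = 0.12). Its signal lay at the 20.3 percentile of probe sets, where values may be background. Genes of this family have many transcripts from separate starts, which 1 probe set per gene does not resolve.

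PDE7A, the close relative of PDE7B, had 6.50 and 6.59 in shDROSHA against 6.08 and 6.32 in shNC arrays. It was higher by 0.35 without overlap and did not pass (95% interval 0.02 to 0.68, limma adjusted p = 0.23). The difference between PDE7A and PDE7B in response was not tested. PDE1B, an enzyme activated by calcium and calmodulin, had 5.19 and 5.60 against 5.01 and 4.88 (difference 0.45, limma adjusted p = 0.21). Its signal, at the 13.7 percentile of probe sets, may be background. PDE8A, a high-affinity cyclic AMP phosphodiesterase, had 9.15 and 9.10 against 9.33 and 9.32, lower by 0.20 on the log2 scale with no overlap and short of the threshold (limma adjusted p = 0.11). The others that did not pass were PDE2A, PDE1C, PDE10A and PDE3B, with differences of 0.35, 0.19, 0.13 and 0.05, and PDE8B and PDE11A, with -0.08 and -0.29. Of these 6 only PDE10A and PDE3B had a signal near or above the median.

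**Figure D2:**
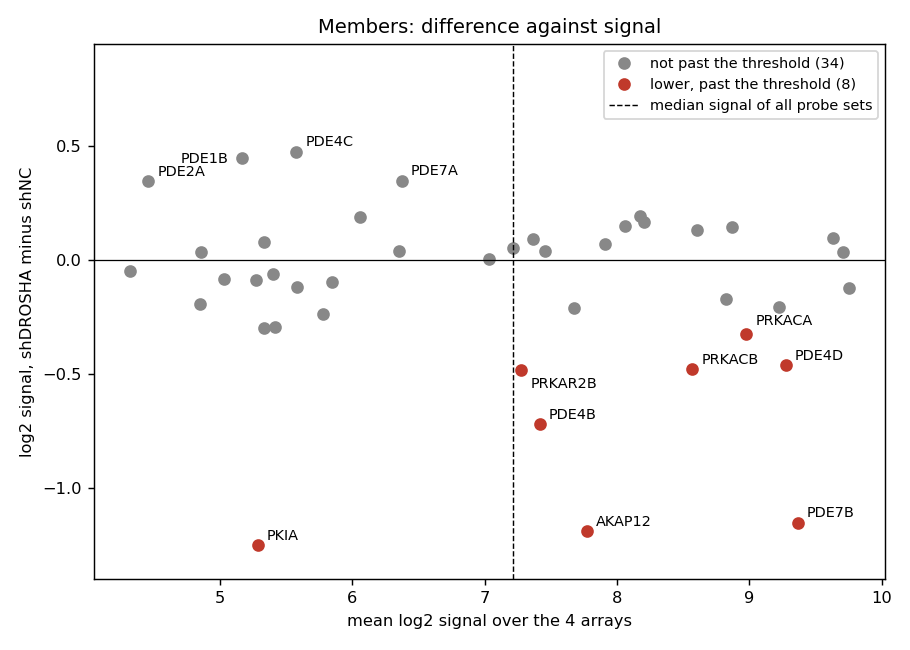
Difference in log2 signal, shDROSHA minus shNC, against mean log2 signal over the 4 arrays for the 42 measured genes, with the median signal of all probe sets as a dashed line. All of the 8 genes past the threshold except PKIA lie to the right of the line, and the 4 labelled phosphodiesterases with positive differences lie to its left.

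Adenylyl cyclases showed no call. The 7 measured isoforms differed by -0.30 to 0.09, with a median of -0.05. Arrays did not overlap at 1 of the 7 (14.3%), beside 47.8% of all probe sets. ADCY9, a widely expressed isoform and the only 1 above the median signal, had 7.28 and 7.54 in shDROSHA against 7.32 and 7.31 in shNC arrays, and its 95% interval ran from -0.17 to 0.36. ADCY3 differed by 0.04 (95% interval -0.29 to 0.37). ADCY1, a calcium-stimulated isoform, had a signal at the 16.2 percentile of probe sets, where values may be background. It read 5.16 and 5.21 against 5.60 and 5.36, with a difference of -0.30 (limma adjusted p = 0.41). Intervals of this width do not show that cyclase mRNAs were alike in the groups. ADCY2, ADCY4, ADCY5 and ADCY7 differed by -0.10 to 0.03.

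Both measured catalytic subunits of PKA fell. PRKACB had 8.39 and 8.27 in shDROSHA against 8.78 and 8.83 in shNC arrays, 1.39-fold lower (difference -0.48, SE 0.086, limma adjusted p = 0.0042). PRKACA had 8.84 and 8.79 against 9.16 and 9.11, 1.25-fold lower (difference -0.32, SE 0.076, limma adjusted p = 0.021). The gap between the groups exceeded the gap within either group for each gene. The PRKACA call was lost without shNC replicate 1 (difference -0.30, limma adjusted p = 0.16) and without shNC replicate 2 (-0.35, limma adjusted p = 0.066).

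Of the 4 regulatory subunits, PRKAR2B fell and the others did not pass. PRKAR2B encodes the type II beta subunit, which binds cyclic AMP and, through AKAPs, places the kinase. Its signals were 7.17 and 6.89 against 7.48 and 7.55, 1.40-fold lower (difference -0.48, SE 0.129, limma adjusted p = 0.041). This was the weakest of the 8 calls: it was lost without shDROSHA replicate 2 (difference -0.34, limma adjusted p = 0.17), without shNC replicate 1 (-0.52, 0.132) and without shNC replicate 2 (-0.45, 0.185), and with each array centred on its median (-0.45, 0.055) or quantile-normalized again (-0.46, 0.058).

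PRKAR1A, the type I alpha subunit, was the only gene here with 2 probe sets, and they disagreed. The brighter had 9.68 and 9.78 against 9.64 and 9.75, a difference of 0.03, and the other 8.84 and 8.68 against 9.05 and 9.02, a difference of -0.27 that did not pass (limma adjusted p = 0.066). PRKAR2A and PRKAR1B differed by 0.15 and 0.01, with overlapping arrays.

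All 3 PKA inhibitors were lower, and PKIA passed the test. PKI proteins bind free catalytic subunits as a pseudosubstrate and carry them out of the nucleus. PKIA had 4.75 and 4.57 in shDROSHA against 5.97 and 5.85 in shNC arrays, 2.38-fold lower (difference -1.25, SE 0.178, limma adjusted p = 0.0008). Both depleted arrays lay over a log2 unit below both controls. The signal ranked at the 15.4 percentile of probe sets, where values may be background. The control level was dim too, close to that of AKAP6 in shNC arrays (5.77 and 6.03). With no detection calls, neither level of PKIA was placed above background, and the 2.38-fold difference may lie within the background range. PKIG, whose probe set was the brightest of the class, had 7.42 and 7.72 against 7.78 and 7.77 (difference -0.21, limma adjusted p = 0.375), and PKIB, with overlapping arrays, differed by -0.19. CREB1, the nuclear target of the kinase, had 9.69 and 9.70 against 9.81 and 9.83, lower by 0.12 on the log2 scale without overlap and without passing (limma adjusted p = 0.31).

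**Figure D3:**
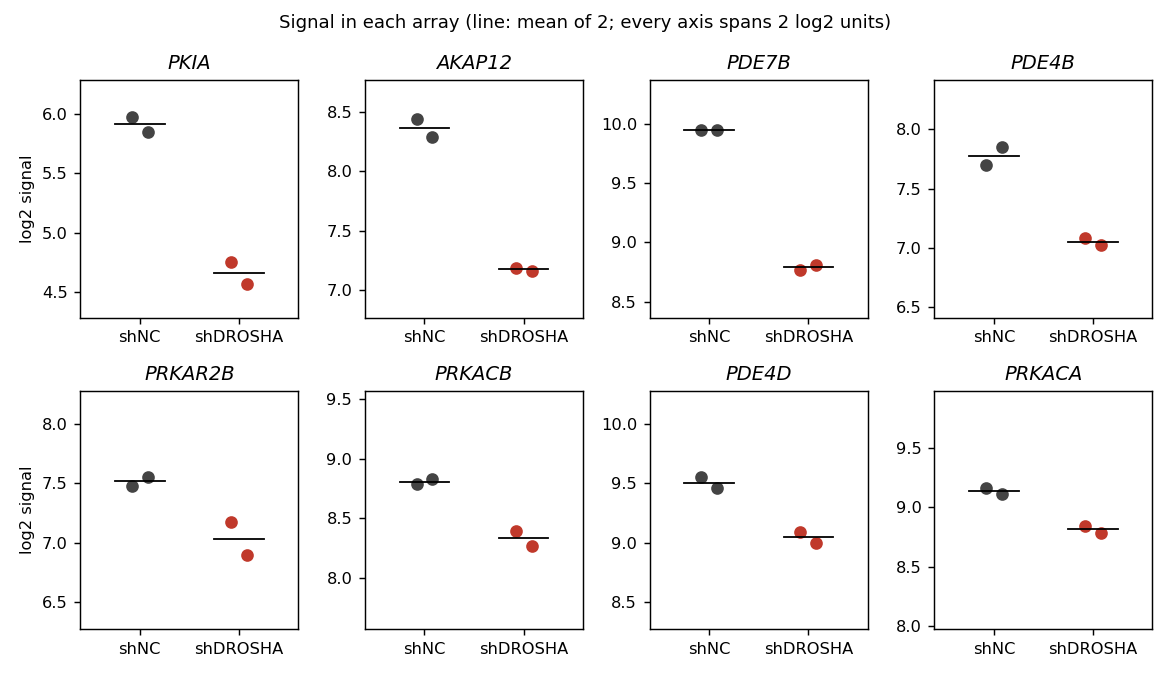
Log2 signal in each array for the 8 genes past the threshold (AKAP12 and PDE7B among them as a description), with 2 points per group and their mean as a line; every panel spans 2 log2 units. In all 8 panels both shDROSHA arrays lie below both shNC arrays, and the spread within a group is widest in the shDROSHA arrays of PRKAR2B (7.17 and 6.89).

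Other genes of the pathway were read from 7 lists covering receptors, G proteins, further effectors, phosphodiesterases, anchors, CREB cofactors and CREB targets. Of 91 listed genes 73 were measured, 4 rose and 4 fell (65 passed in neither direction), around a median difference of -0.02. The genes that fell made up 5.48% of the 73, and 27.3% of the G protein list. Over all probe sets 3.28% were called lower and 3.12% higher. The lists were made with earlier results known, so nothing is read from these shares or from the counts of single lists. Among 11 G proteins and their regulators, 3 fell (GNAS, GNAL and GNAZ) and RGS2 rose; 9 were lower, and the median was -0.27. GNAS, the stimulatory alpha subunit that activates adenylyl cyclases, had 10.31 and 10.25 against 10.59 and 10.60, 1.25-fold lower (difference -0.32, SE 0.054, limma adjusted p = 0.0031). With each array left out in turn, the GNAS difference lay between -0.35 and -0.28. GNAL, the olfactory-type stimulatory alpha subunit, had 6.43 and 6.65 against 7.04 and 7.21 and fell 1.497-fold (limma adjusted p = 0.024). GNAZ, an alpha subunit of the inhibitory class, had 6.01 and 5.94 against 6.96 and 6.72 and fell 1.82-fold (limma adjusted p = 0.0036). The 3 genes thus include alpha subunits that stimulate and 1 that inhibits cyclic AMP synthesis. RGS2, a regulator of G protein signalling, had 7.10 and 7.19 against 6.60 and 6.67 and rose 1.42-fold (limma adjusted p = 0.033).

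GNAL, GNAZ and RGS2 lay below the median signal, at the 43.0, 34.8 and 43.8 percentiles of probe sets. With no detection calls, these signals were not placed above background. Their calls did not hold in every fit that left out 1 array. GNAL was not called without shNC replicate 1 (difference -0.66, limma adjusted p = 0.064) or replicate 2 (-0.50, 0.17). GNAZ was not called without shNC replicate 1 (-0.75, limma adjusted p = 0.057). RGS2 was not called without shNC replicate 1 (0.47, limma adjusted p = 0.19), without shNC replicate 2 (0.54, 0.097) or without shDROSHA replicate 2 (0.46, 0.083).

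Of 15 receptors and ligands that act through Gs, 0 passed, the smallest p belonging to ADM, the peptide adrenomedullin (difference 0.38, limma adjusted p = 0.061), and to GPR3, a constitutively active receptor (0.32, limma adjusted p = 0.19). Their median was 0.02. Of 12 further anchoring proteins and cyclases, 1 rose and 0 fell, with a median of -0.05. That gene was GSKIP, a small PKA anchor that also binds GSK3 beta, with 8.89 and 8.98 against 8.45 and 8.31 (difference 0.55, SE 0.087, limma adjusted p = 0.0018), opposite in direction to AKAP12. Of 6 further cyclic AMP effectors and transporters 0 passed (median 0.05), PRKX, a PKA-related kinase, having -0.29 (limma adjusted p = 0.24) and ABCC4, a cyclic AMP exporter, 0.17 (limma adjusted p = 0.40). Of 7 further genes named as phosphodiesterases or their subunits, in families specific for cyclic GMP, 0 passed (median 0.05). PDE5A had -0.41 (limma adjusted p = 0.28) and PDE6B 0.20 (limma adjusted p = 0.34). Of 10 CREB cofactors and relatives 0 passed (median -0.04), CREB5 having 0.32 (limma adjusted p = 0.071) and CREB3 -0.19 (limma adjusted p = 0.12).

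Among 12 genes often used as CREB targets, EGR1 and CCN1 rose, PPARGC1A fell and 9 gave no call; 8 were higher, and the median was 0.21. EGR1, an immediate early transcription factor, had 8.15 and 8.27 against 7.84 and 7.77 (difference 0.40, limma adjusted p = 0.028), and CCN1, a matricellular protein, 11.26 and 11.22 against 11.03 and 10.99 (difference 0.23, limma adjusted p = 0.0087). PPARGC1A, a coactivator of mitochondrial genes, had 7.35 and 7.19 against 7.85 and 7.78 and fell 1.45-fold (limma adjusted p = 0.011). The list did not move in 1 direction, and its members also answer to pathways other than cyclic AMP. EGR1 was not called without shDROSHA replicate 2 (0.34, limma adjusted p = 0.091), shNC replicate 1 (0.43, 0.091) or shNC replicate 2 (0.36, 0.14), CCN1 without shNC replicate 2 (0.21, 0.066), and PPARGC1A without shNC replicate 1 (-0.51, 0.10).

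**Figure D4:**
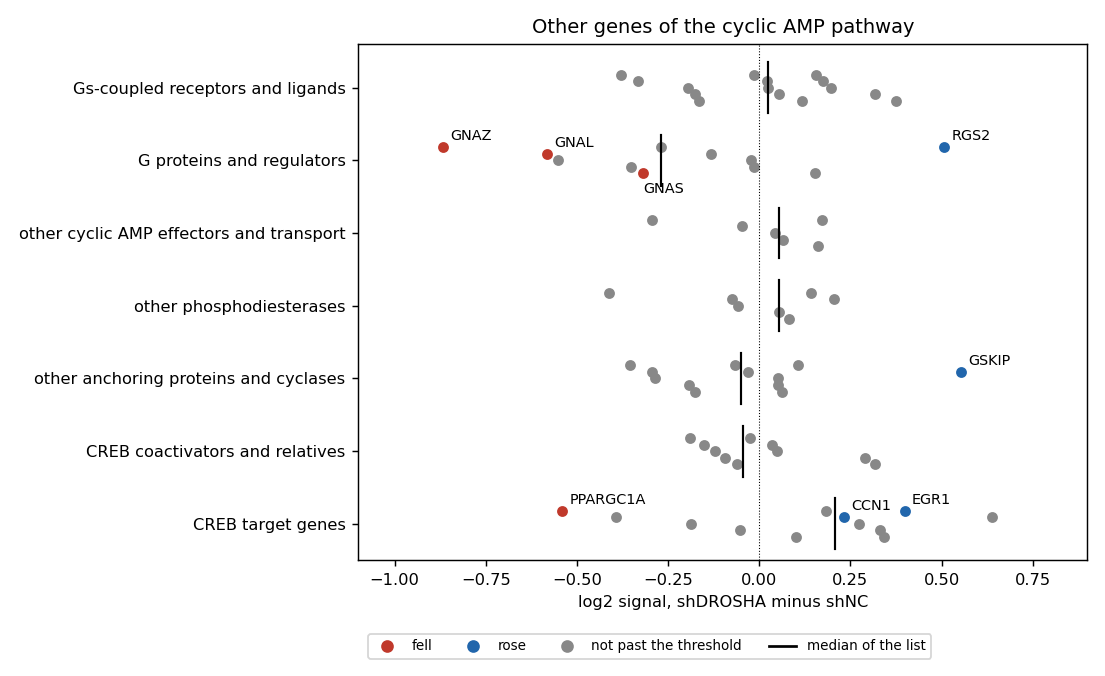
Difference in log2 signal, shDROSHA minus shNC, for the 73 measured genes of the 7 other pathway lists, 1 point per gene with a line at each list's median; vertical scatter within a list has no meaning. The genes that fell are GNAZ, GNAL, GNAS and PPARGC1A, those that rose are GSKIP, RGS2, EGR1 and CCN1, and the G protein list has the lowest median (-0.27).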

How the data were processed

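The authors deposited 1 log2 signal per probe set and array, made with RMA per the submitters' processing notes; version, filters and build were not given in the sources used here. In its usual form RMA corrects background, quantile-normalizes arrays and summarises probes, which hides any shift common to most genes. No detection calls were used, and precision is limited by having 4 arrays.

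Genes were named from the platform annotation. All 18603 probe sets were fitted with limma 3.58.1 in R 4.3.3 (lmFit, eBayes with an intensity trend, 11.9 prior and 2 residual degrees of freedom), shDROSHA against shNC, two-sided, with Benjamini-Hochberg adjustment and a threshold of 0.05. The trend was used because the median residual SD ran from 0.171 to 0.051 between the dimmest and the brightest of 5 equal bins of probe sets. "Rose" and "fell" mean past that threshold. The fit was tested on simulated data. Values per array are given for members past the threshold, those differing by 0.4 or more without overlap, and the brightest of each class; AKAP10, AKAP11, PDE7A, PDE8A, ADCY1 and the dimmer PRKAR1A probe set were added after their values were seen. Of the other pathway lists, genes past the threshold are named with values per array, or where none passed the 2 with the smallest p. Members, lists and the choice of the trend were made with earlier results of these data known. Alternatives covered the prior variance, dim probe sets, normalization, the replicate block, probe set choice, the threshold and leaving out each array.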

Additional observations from a re-analysis of the deposited data

How the results depend on the processing

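Among alternatives that kept all 4 arrays, 7 or 8 members were called, all lower and all among the same 8 genes, AKAP12 and PDE7B included. The exception was the constant prior variance, which called 0 (12 at an unadjusted p under 0.05 in limma). Over all probe sets the count of 1192 became 1 with the constant prior variance, 1824 at adjusted p 0.10, and between 535 and 1949 when arrays were left out: 535 lacking shNC replicate 1, 748 lacking shNC replicate 2, 1949 lacking shDROSHA replicate 1. After median centring of arrays, higher calls made up 62.5% of those over all probe sets, against 48.7% as deposited, and 7 members were called, 0 of them higher. The replicate block gave 8 members and 1391 probe sets; same-numbered arrays' deviations had a correlation of -0.022, so the number is not shown to pair cultures. Class medians moved beyond the replicate spread in a few settings. With members at or above the median signal alone, the phosphodiesterase median was -0.33, PDE7B included. That of adenylyl cyclases was 0.0946, then being 1 gene. When arrays were left out, the adenylyl cyclase median ran from -0.0678 to 0.0877 and that of PKA inhibitors from -0.36 to -0.21. CREB1, alone in its class, had -0.0888 with arrays centred and -0.14 with quantile normalization again. The cause of these shifts was not tested. Both filters on dim probe sets removed PKIA. Of the 17 genes recomputed singly (the 8 members, DROSHA and the 8 other pathway genes past the threshold), 0 reversed. Members with small differences did change sign: adenylyl cyclases went from 3 higher and 4 lower to 5 and 2 without shNC replicate 2 and to 1 and 6 without shDROSHA replicate 2, and PKA regulatory subunits from 3 and 1 to 1 and 3 without shDROSHA replicate 2.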
